A study of Gallus gallus with 6 samples.

Results

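The 42 mitosis genes described here encode the machinery that enters, checks and completes cell division, and they were chosen by name from the list of mitotic cyclins, kinases, checkpoint, kinetochore, motor, spindle and condensin genes. A gene counted as measured where the platform annotation gave its symbol to a probe set, and a gene with several was represented by the one whose mean intensity on the 6 arrays was highest. By this rule 35 of the 42 were measured, out of 13009 genes on the array. CCNB2, AURKA, CDCA8, CENPA, SPC24, KIF4A and NCAPH were not found under their symbols and are not analysed here. The samples were neural crest cell cultures grown from neural tube explants of stage 9+ chicken embryos. They had been in culture for 4 h, and then stayed for 6 h in media (control 1 to 3) or in media with homocysteine at 100 uM (homocysteine 1 to 3). Each culture sample gave 1 Affymetrix chicken array, with no other treatment or genotype named in the labels. The labels do not say whether the 3 arrays of a group came from separate cultures, so the p-values rest on a spread between arrays that may be purely technical.

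A dividing cell enters mitosis when CDK1, a kinase that needs a cyclin partner, becomes active. Chromosomes are then condensed, attached through kinetochores to a spindle of microtubules, held back by the spindle checkpoint until all are attached, and pulled apart before the cell is cut in 2 by cytokinesis. The RNA of many of these genes is highest around G2 and mitosis, so their summed RNA is widely read as a sign of proliferation. In bulk RNA such as this, fewer dividing cells and less RNA per dividing cell cannot be told apart. Homocysteine is an amino acid formed from methionine, and neural crest cells are the migratory population that arises at the dorsal edge of the neural tube.

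The values are deposited intensities on a linear scale, in arbitrary units. The background of an array was taken as the 95th percentile of its 57 reporter sets, designed for sequences foreign to the chicken, and lay between 53.2 and 84.9. Both replicate 1 arrays differed from the rest in RNA or labelling quality: for ACTB the 5' probe set over the 3' probe set was 0.0572 and 0.059 on them and between 0.238 and 0.421 on the others. Of the 9 neural crest markers, 8 were above background on all 6 arrays, and the sum over the 9 was 8563 on control 1 and 9084 on homocysteine 1, against 17780 to 20360 on the other arrays. The sum over the 5 neural tube markers was also lowest on these arrays, at 12750 on control 1 and 14580 on homocysteine 1, against 17950 to 20250 on the others. The 5 neural tube markers were also all above background on every array, as were 4 of 5 neuronal, 3 of 6 mesodermal, 3 of 3 surface ectoderm and 4 of 6 blood and endothelial markers. Among the 6 mesodermal markers, TBXT (4.06 to 18.4 times background), MEOX1 and TWIST1 were above background on all 6 arrays. The other 3, TBX6, TCF15 and MYOD1, were above background on no array.

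Mitosis genes were expressed in both groups. Of the 35 measured, 34 (97.1%) were above background on all 6 arrays, against 60.9% of all 13009 genes read in the same way. The exception was SPC25, a subunit of the NDC80 complex at the outer kinetochore, which passed the background on every array but homocysteine 2. Among the other 34, the lowest reading was that of HMMR on homocysteine 1, at 2.52 times the background of that array. Most stood much higher: CDK1 was at 163 to 299 times background over the 6 arrays, BUB3 at 219 to 331 times and AURKB at 135 to 246 times. These ratios set each probe set against the background of its array and do not rank one gene against another. The summed intensity over the 35 genes was 182600, 178800 and 170300 on control 1, 2 and 3, and 184500, 178800 and 180200 on homocysteine 1, 2 and 3. The sums thus overlapped between the groups, and they were not lower on the replicate 1 arrays, where the sums of the neural crest and neural tube markers were lowest. A sum of intensities rests mostly on its brightest probe sets. Gene by gene, replicate 1 lay below both other arrays in both groups for 10 of 34 members, and above both for 13.

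**Figure D1:**
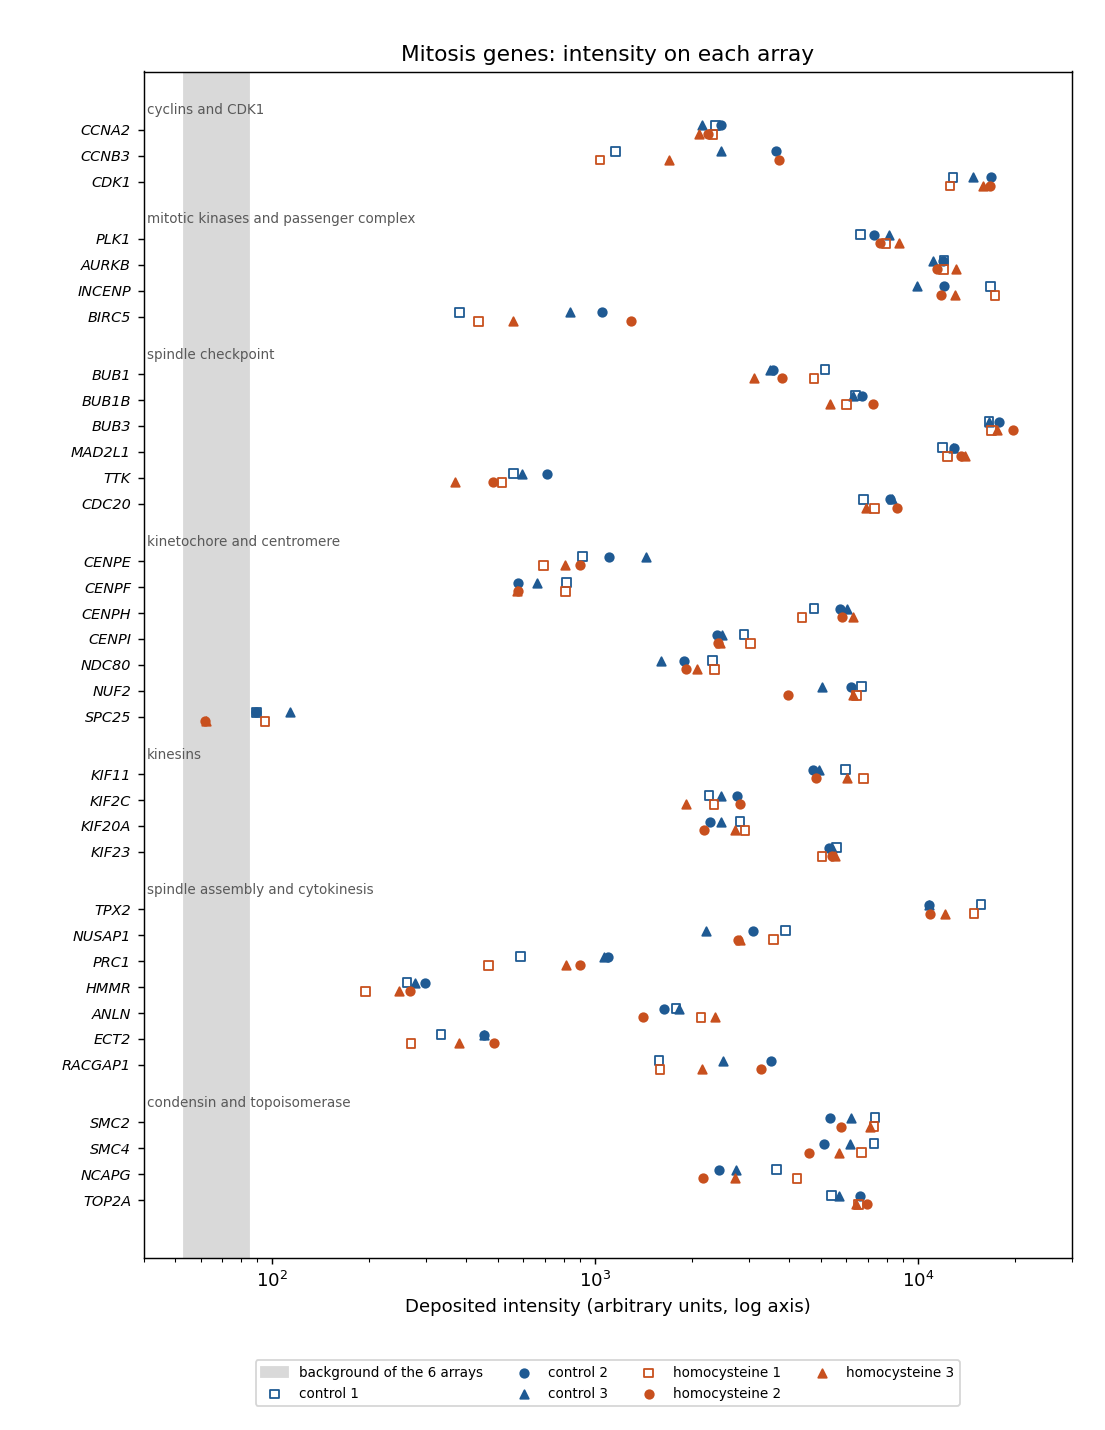
Deposited intensity of the 35 measured mitosis genes on each array (log axis, arbitrary units), by class; blue marks are control and orange marks homocysteine arrays, open squares replicate 1, circles replicate 2 and triangles replicate 3. The grey band spans the background of the 6 arrays (53.2 to 84.9), and SPC25 is the only gene with readings inside the band.

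The comparison asks which transcripts differ in neural crest cultures after 6 h of homocysteine. No mitosis gene passed the test: 0 of 35 passed an adjusted p of 0.05 (limma, Benjamini-Hochberg over 38382 probe sets), beside 0% of all probe sets. At an unadjusted p under 0.05 there were also 0 of 35, beside 3.97% of all probe sets and 0.152% of the 14437 above background on all 6 arrays. With so few bright probe sets below this p, the count of 0 does not show that the members were unchanged. The log2 change, the mean log2 value with homocysteine minus that of control, need not equal the log2 ratio of the mean intensities printed below. It was positive for 16 members and negative for 19, and its median was -0.025. Over the 34 members above background on all arrays the median was -0.019, against 0.0036 over the 7925 such genes. The median of all 35 had no stable sign: it was 0.036 with arrays centred on their bright probe sets, 0.0073 without homocysteine 2 and 0.012 without homocysteine 3. By same-numbered pairs the members' median was -0.0097, 0.0097 and -0.0076 for pairs 1, 2 and 3. In 29 of 35 members the log2 change was under 0.2 in size. The other 6 were CENPE, TTK, SPC25, PRC1, HMMR and CCNB3, all with negative values between -0.51 and -0.22. Without both replicate 1 arrays 4 members turned sign: CENPH (to 0.042), CENPI (-0.0058), KIF23 (0.035) and NCAPG (-0.085). In that fit 3 members moved by more than 0.1: SPC25 (from -0.43 to -0.69), TTK (from -0.46 to -0.63) and BIRC5 (from -0.032 to -0.14).

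The intervals show how large a difference could have gone undetected under the limma fit. Their widths were not set by a gene's own spread between arrays alone. In limma each variance is drawn toward a value shared by all 38382 probe sets, 13454 of them above background on no array. With only probe sets above background on at least 3 arrays fitted, without a block, the limits of KIF23 moved from -0.63 and 0.57 to -0.46 and 0.41. If the spread between arrays is only technical, the intervals do not bound a difference between cultures. The 95% interval of the log2 change reached a median of 0.696 to either side, and in 28 of 35 members it lay within 1 log2 unit, or 2-fold, of no difference in either direction. In the other 7 it passed 2-fold, for CCNB3 and BIRC5 in both directions and for CENPE, TTK, SPC25, PRC1 and RACGAP1 only toward lower values with homocysteine. When the replicate number was entered as a block and only the 19257 probe sets above background on at least 3 arrays were fitted, the median half-width was 0.382. This fit was chosen after the data were examined. In that fit 34 of 35 intervals lay within 2-fold and 26 within 1.5-fold. It gave 1 member, CENPE, an unadjusted p under 0.05 (2.86% of members, beside 5.26% of the probe sets fitted), with an adjusted p of 0.919 in limma.

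**Figure D2:**
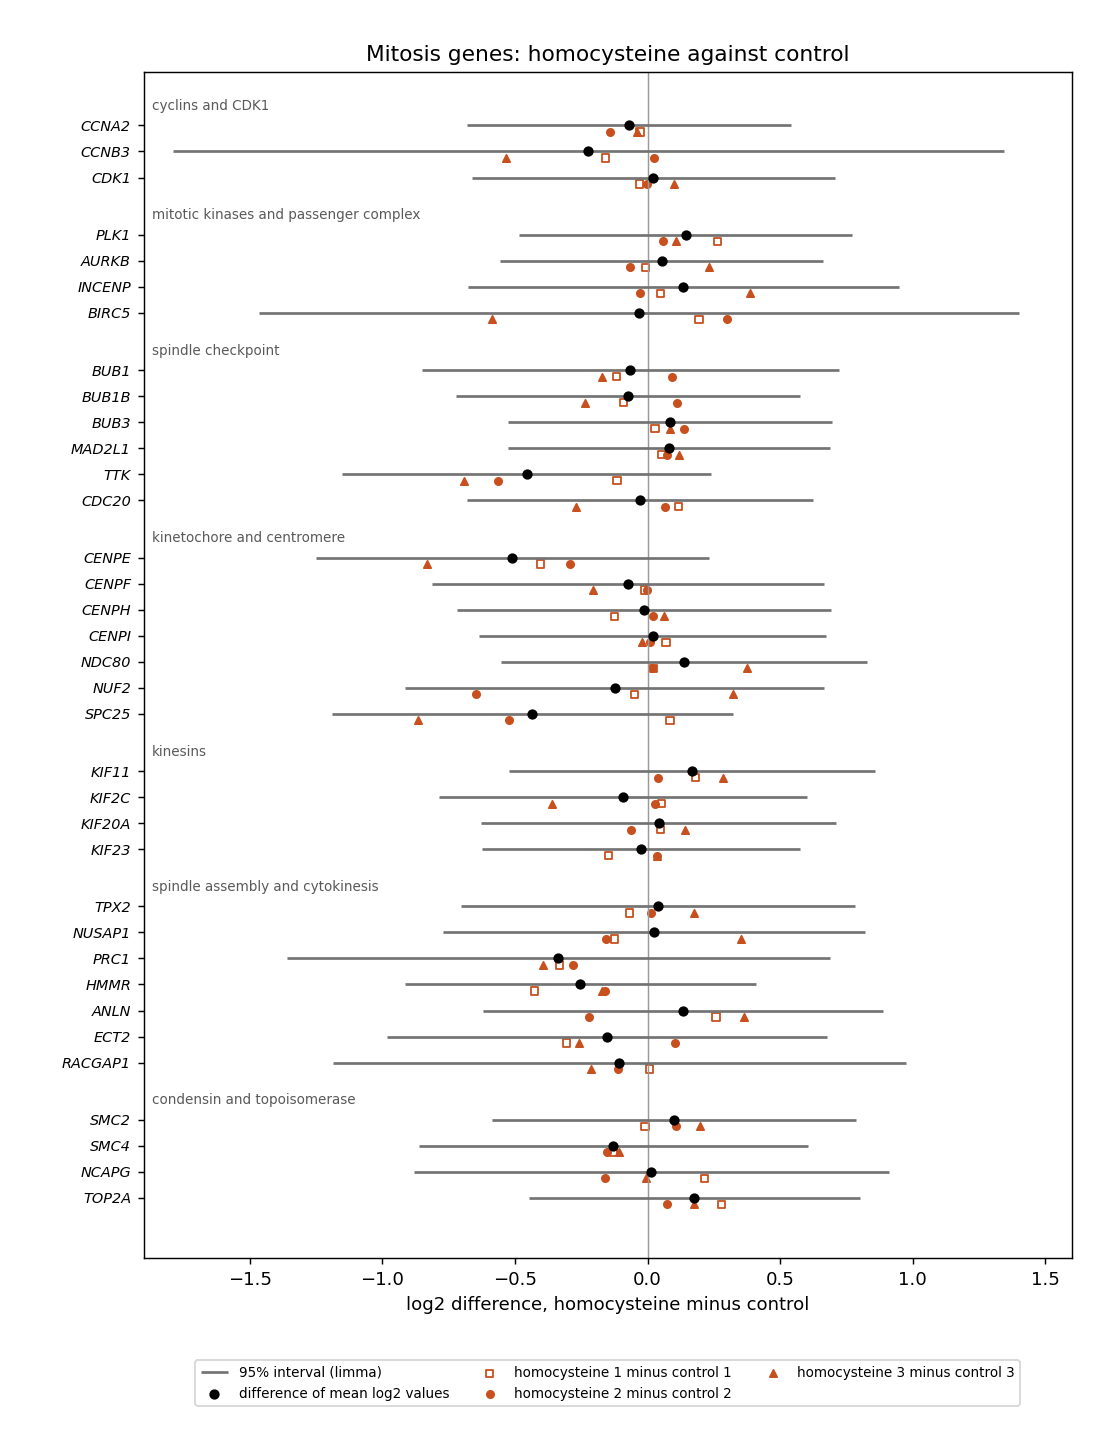
Log2 difference between homocysteine and control for the 35 measured mitosis genes; black points are the differences of mean log2 values with their 95% limma intervals (grey bars), and orange marks are the 3 same-numbered pairs. Every interval crosses 0, and the points furthest to the left are CENPE at -0.51 and TTK at -0.46.

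Cyclins and CDK1 open mitosis. Among the 3 measured, 1 was read higher and 2 lower with homocysteine (median log2 change -0.069), and none passed the test. CDK1, the kinase at the head of the cascade, was read at 12839, 16796 and 14868 on control 1, 2 and 3 and at 12562, 16752 and 15944 on homocysteine 1, 2 and 3. Each treated array lay close to the control of the same number, and replicate 1 was lowest in both groups. The group means were 14830 ± 1979 and 15090 ± 2223 (SD, n = 3 each), and the log2 change was 0.022 (95% interval -0.66 to 0.71). CCNA2, cyclin A2, which acts in S phase and up to early mitosis, gave 2365, 2459 and 2150 in control and 2318, 2232 and 2094 with homocysteine. The treated value was the lower in each pair, but the groups overlapped and the log2 change was -0.069 (interval -0.68 to 0.54). CCNB3, a B-type cyclin, gave 1158, 3638 and 2451 in control and 1037, 3704 and 1692 with homocysteine. Its spread followed the replicate number far more than the treatment, and the interval of its log2 change ran from -1.79 to 1.34.

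Mitotic kinases and the passenger complex correct attachments and trigger cytokinesis. Log2 changes were positive for 3 and negative for 1 of the 4 measured (median 0.094), and none passed. PLK1, a kinase of centrosomes and kinetochores, was read at 6653, 7316 and 8120 in control and at 7982, 7628 and 8747 with homocysteine. It was higher with homocysteine in all 3 pairs, with overlapping groups and a log2 change of 0.14 (interval -0.48 to 0.77). AURKB, the kinase of the passenger complex, gave 12074, 12005 and 11159 in control and 12013, 11470 and 13121 with homocysteine, with overlapping groups. Its scaffold INCENP gave group means of 12920 ± 3495 and 14050 ± 2919 (SD, n = 3 each). BIRC5, survivin, which targets the complex to centromeres, gave 380.4, 1048.5 and 837.9 in control and 435.2, 1289.6 and 557.5 with homocysteine. Here pair 3 went the opposite way to pairs 1 and 2, and the interval, from -1.47 to 1.40, allowed more than 2-fold in either direction.

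Spindle checkpoint genes keep the anaphase-promoting complex inactive until every kinetochore is attached. None of the 6 passed, and 2 were read higher and 4 lower with homocysteine (median log2 change -0.047). MAD2L1, the checkpoint protein that binds CDC20, was read at 11921, 12969 and 12857 in control and at 12365, 13640 and 13951 with homocysteine. BUB3, which brings BUB1 and BUB1B to kinetochores, gave 17020 ± 744.4 and 18070 ± 1445 (SD, n = 3 each). Both genes were slightly higher with homocysteine in each pair, with log2 changes of 0.081 and 0.085 and overlapping groups. BUB1, a kinase of the kinetochore, gave 5167, 3552 and 3497 in control and 4767, 3788 and 3108 with homocysteine, a log2 change of -0.064. BUB1B, BubR1, had means of 6484 ± 220.9 and 6213 ± 968.2 (SD, n = 3 each). CDC20, the activator of the anaphase-promoting complex, was read at 6781, 8227 and 8342 in control and at 7354, 8617 and 6914 with homocysteine. Its groups overlapped, pair 3 went the opposite way to pairs 1 and 2, and the log2 change was -0.029. The remaining gene of the class is TTK.

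TTK, the MPS1 kinase that starts checkpoint signalling at unattached kinetochores, was read at 559, 712.2 and 595.9 on control 1, 2 and 3 and at 516.2, 482.4 and 369 on homocysteine 1, 2 and 3. All 3 treated arrays lay below all 3 controls. The means were 622.4 ± 79.96 and 455.9 ± 77.1 (SD, n = 3 each), and the log2 change was -0.46 (95% interval -1.15 to 0.24, adjusted limma p 0.9999). By pair the differences were -0.11, -0.56 and -0.69, and without the replicate 1 arrays the change was -0.63 with an unadjusted limma p of 0.146. TTK has 2 further probe sets above background on every array. The first of these gave 581.9, 511.8 and 643.1 in control and 453.4, 452.9 and 421.5 with homocysteine, again without overlap, and a log2 change of -0.38. The dimmest gave 344.4, 469 and 268.7 against 319.2, 335.1 and 139.3, lower in each pair but with overlapping groups, and a log2 change of -0.51. None of the 3 probe sets passed, with unadjusted limma p-values of 0.159, 0.186 and 0.303.

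Kinetochore genes build the bridge between centromere and microtubule. Among 7 measured, 2 were read higher and 5 lower (median log2 change -0.073), and none passed. CENPE, a kinesin motor of the kinetochore that helps to align chromosomes, was read at 914.8, 1103.9 and 1441.9 in control and at 691.9, 900.7 and 810 with homocysteine. The groups did not overlap, though control 1 and homocysteine 2 were close to each other. Means were 1154 ± 267 and 800.9 ± 104.7 (SD, n = 3 each), with a log2 change of -0.51, an interval from -1.25 to 0.23 and an adjusted p of 0.9999 (limma). A dimmer CENPE probe set did not share this difference: it gave 291.9, 250.8 and 265.8 in control and 326.8, 296.9 and 273.5 with homocysteine, higher in each pair, with a log2 change of 0.15. CENPF, a large coat protein of the kinetochore, gave 815.9, 577.2 and 661.3 against 810.1, 576.5 and 572.9.

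NDC80, the microtubule-binding subunit of the complex named after it, was read at 2311, 1888 and 1597 in control and at 2347, 1912 and 2073 with homocysteine. The log2 change was 0.14 and rested on pair 3, since pairs 1 and 2 differed by 0.022 and 0.018. It was 0.0095 without control 3 and 0.28 without control 1. Its second probe set, also above background throughout, gave 540.7, 705.2 and 749.7 in control and 446.8, 459.6 and 427.4 with homocysteine. There the groups did not overlap, with a log2 change of -0.57 and an unadjusted limma p of 0.0809. The partner NUF2 had means of 5976 ± 850.5 and 5575 ± 1398 (SD, n = 3 each). CENPH and CENPI, subunits of the inner kinetochore, gave log2 changes of -0.0135 and 0.019. SPC25 lay near background, at 89.5, 88.9 and 113.8 in control and 94.9, 61.9 and 62.5 with homocysteine, overlapping and above background on 5 of 6 arrays.

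Mitotic kinesins, motors that walk along or shorten microtubules, had positive log2 changes for 2 and negative for 2 of the 4 measured (median 0.008), and none passed. KIF11, the motor Eg5 that pushes spindle poles apart, was read at 5981, 4721 and 4950 in control and at 6783, 4855 and 6032 with homocysteine, a log2 change of 0.17 (interval -0.52 to 0.86). It was higher in each pair, but its second probe set gave 1537, 2421 and 3174 against 1697, 1850 and 2159, a log2 change of -0.27. KIF23, a motor of the midzone complex, gave 5434 ± 152.7 and 5342 ± 257.5 (SD, n = 3 each). KIF20A, a motor of the anaphase midzone, and KIF2C, which removes microtubule ends at centromeres, gave log2 changes of 0.042 and -0.092.

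Spindle assembly and cytokinesis genes organise microtubules and divide the cell body. None of the 7 passed; 3 were read higher and 4 lower (median log2 change -0.106). PRC1, which bundles microtubules of the midzone, was read at 588.8, 1094.4 and 1069.6 in control and at 468.2, 900.4 and 813.2 with homocysteine. The treated array was lower in each pair by a like amount (-0.33, -0.28 and -0.40). Yet the groups overlapped, since control 1 lay below homocysteine 2 and 3, and replicate 1 was lowest in both groups. The log2 change of PRC1 was -0.34, with an interval from -1.36 to 0.69. Unadjusted limma p-values were 0.451 without and 0.17 with the replicate block. The change was -0.63 without control 1 and -0.046 without homocysteine 1. HMMR, a spindle-associated protein also called RHAMM, gave 261.7, 298.5 and 278 in control and 194.7, 266.8 and 246.6 with homocysteine. The groups overlapped by one array, and its other probe set gave a log2 change of -0.23, close to the -0.25 of the first.

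The remaining genes of this class had no common direction. TPX2, which activates Aurora A and nucleates microtubules, was read at 15690, 10829 and 10794 in control and at 14953, 10935 and 12174 with homocysteine, a log2 change of 0.039. ANLN, anillin, a scaffold of the contractile ring, gave 1782, 1636 and 1824 against 2131, 1405 and 2346, so that pair 2 opposed the other pairs. ECT2, which activates RhoA for the ring, gave 413.7 ± 69.43 and 379 ± 109.1, and its partner RACGAP1 2527 ± 969.4 and 2329 ± 850.4 (SD, n = 3 each). NUSAP1, a microtubule-bundling protein, had a log2 change of 0.023.

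Condensin and topoisomerase compact and untangle the chromosomes. Among 4 measured, 3 were read higher and 1 lower (median log2 change 0.057), and none passed. SMC4, a core ATPase of condensin, was read at 7311, 5124 and 6165 in control and at 6695, 4611 and 5718 with homocysteine. It was lower in each pair by between 0.11 and 0.15, but its replicates of 1 group differed more than that, and the log2 change of -0.13 had an interval from -0.86 to 0.60. Its partner SMC2 gave 6312 ± 1011 and 6739 ± 845.9, a log2 change of the opposite sign, and the condensin I subunit NCAPG gave 2930 ± 638.6 and 3034 ± 1070 (SD, n = 3 each). TOP2A, topoisomerase II alpha, gave 5396, 6632 and 5688 in control and 6541, 6982 and 6428 with homocysteine. It was higher in each pair, with overlapping groups, and had the largest positive log2 change of the 35, 0.18 (interval -0.45 to 0.80).

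Counted over the 34 members above background on all arrays, the groups did not overlap in 2 with homocysteine lower (5.88%, TTK and CENPE), beside 2.06% of the 14437 probe sets above background throughout. With homocysteine higher there were 0, beside 1.9%. By 1 probe set per gene, as the members were read, 7925 genes were above background throughout. Of these, 130 were lower and 139 higher without overlap, and 987 were lower and 970 higher in all 3 pairs. Lower in all 3 pairs were 7 members (20.6%, beside 13.8% of the 14437 probe sets): CCNA2, TTK, CENPE, CENPF, PRC1, HMMR and SMC4. Higher in all 3 pairs were 6 (17.6%, beside 11.7% of the 14437 probe sets): PLK1, BUB3, MAD2L1, NDC80, KIF11 and TOP2A. The 2 directions were thus about equally common, and with 3 arrays a group an exact two-sided permutation test cannot give a p below 0.10. Some pair differences counted were close to 0, as in pairs 1 and 2 of CENPF (-0.0103 and -0.0018) and NDC80 (0.022 and 0.018). With the replicate number as a block in the limma fit 0 of 35 members passed, beside 0% of all probe sets, and 0 had an unadjusted p under 0.05, beside 5.27% of all probe sets and 0.402% of those above background throughout.

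Probe sets of 1 gene did not always agree. The 35 genes had 68 probe sets, 55 of them above background on all 6 arrays. In 16 genes 2 or more were above background throughout, and in 6 of these (37.5%, beside 54.1% of 2800 such genes on the array) the log2 changes had opposite signs: ANLN, CENPE, ECT2, KIF11, NDC80 and TPX2. The widest gap was that of NDC80, 0.706 in log2, followed by CENPE with 0.659. Both gaps exceeded the log2 change of every member by its leading probe set. In the other 10 the bright probe sets shared a sign, negative in 8 (TTK, HMMR, BUB1, CENPF, KIF23, KIF2C, NUF2 and RACGAP1) and positive in 2 (KIF20A and TOP2A). This split was not counted over the genes of the array, so no direction is read from it. Some of these sets were near background: the third of KIF2C came down to 1.02 and that of CENPF to 1.06 times background. The second set of ECT2, whose sign opposed that of the first, lay at only 1.23 to 2.23 times background. Probe positions within the transcripts were not used here.

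**Figure D3:**
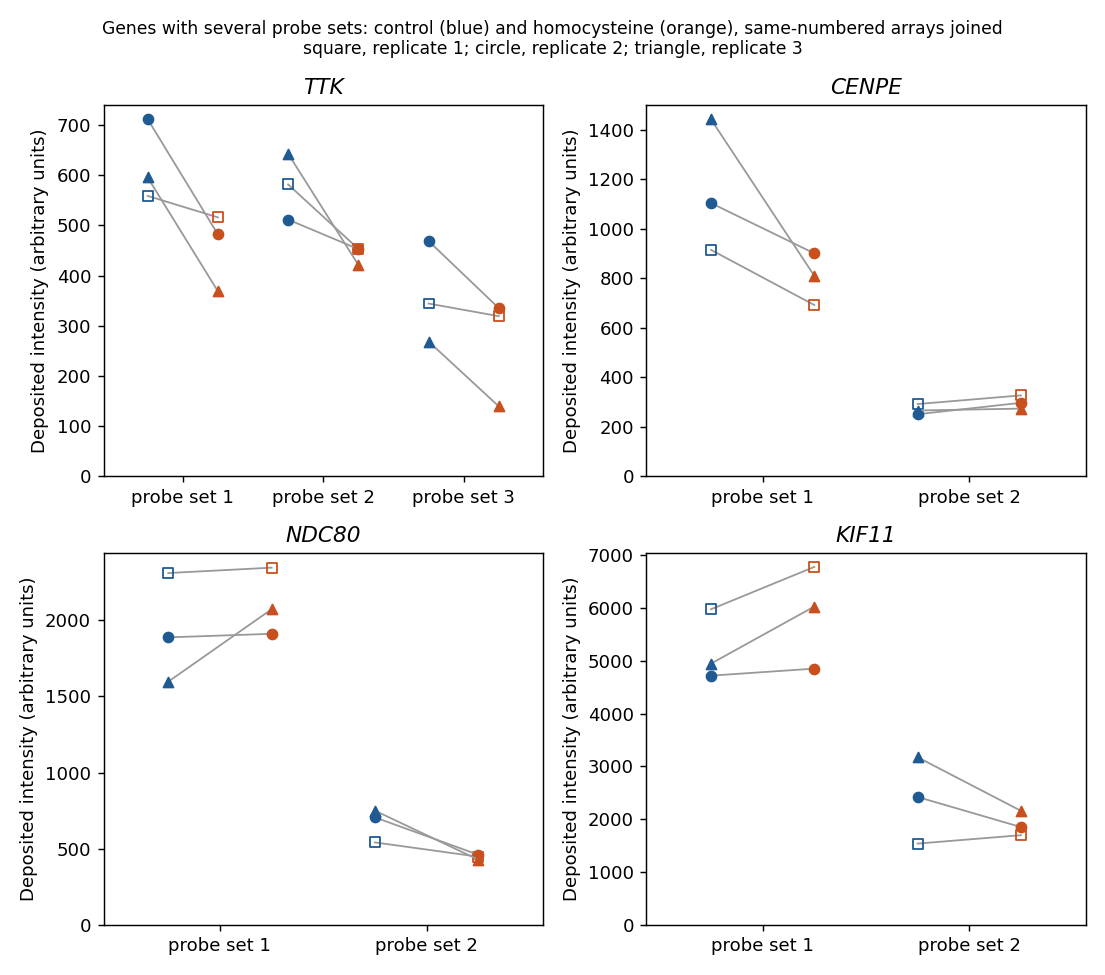
Deposited intensity (linear axis from 0, arbitrary units) of TTK, CENPE, NDC80 and KIF11 for every probe set above background on all 6 arrays, brightest first; blue is control, orange homocysteine, and grey lines join arrays of the same number. All 3 TTK probe sets slope down in each pair, while the probe sets of CENPE and of NDC80 slope in different directions.

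By the median member, replicate 1 stood further from replicates 2 and 3 than homocysteine stood from control. The difference between replicate 1 and the mean of replicates 2 and 3, taken within each group and averaged, had a median size of 0.315 in log2 over the 35 members, against 0.0925 for the homocysteine change. Over probe sets above background throughout, the corresponding sizes were 0.346 and 0.117. In 7 members, TTK and CENPE among them, the homocysteine change was the larger of the 2. Replicate 1 lay below both other arrays in both groups for 10 of 34 members (29.4%, beside 27.7%) and above both for 13 (38.2%, beside 27.1%). The members that were lower by at least 0.5 in both groups were CCNB3 (-1.37 in control and -1.27 with homocysteine), BIRC5 (-1.30 and -0.96), RACGAP1 (-0.90 and -0.73) and PRC1 (-0.88 and -0.87). Higher by as much was NCAPG alone, by 0.51 and 0.80. Across the 35 genes the differences of the control arrays and of the homocysteine arrays correlated with r = 0.899. This is a description across genes, which are not independent and share the arrays, and it was 0.786 over probe sets above background throughout.

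These differences also split the probe sets of single genes. In 6 of the 16 genes with several bright probe sets (37.5%, beside 47.9% of such genes on the array) replicate 1 was higher by one probe set and lower by another. BUB1 was higher on the replicate 1 arrays by its leading probe set (0.55 in control and 0.47 with homocysteine) and lower by its second (-1.06 and -0.46). That second set was dim, at 1.7 to 4.02 times background, and in it homocysteine 1 lay between homocysteine 2 and homocysteine 3. CENPF was higher by its leading set (0.40 and 0.50) and lower by its second (-0.96 and -0.73). RACGAP1 was lower by both of its bright sets, by -1.66 and -1.28 in the second. The low 5' to 3' ratios and the low neural crest and neural tube marker sums moved with the same arrays, and their part in these differences was not tested.

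**Figure D4:**
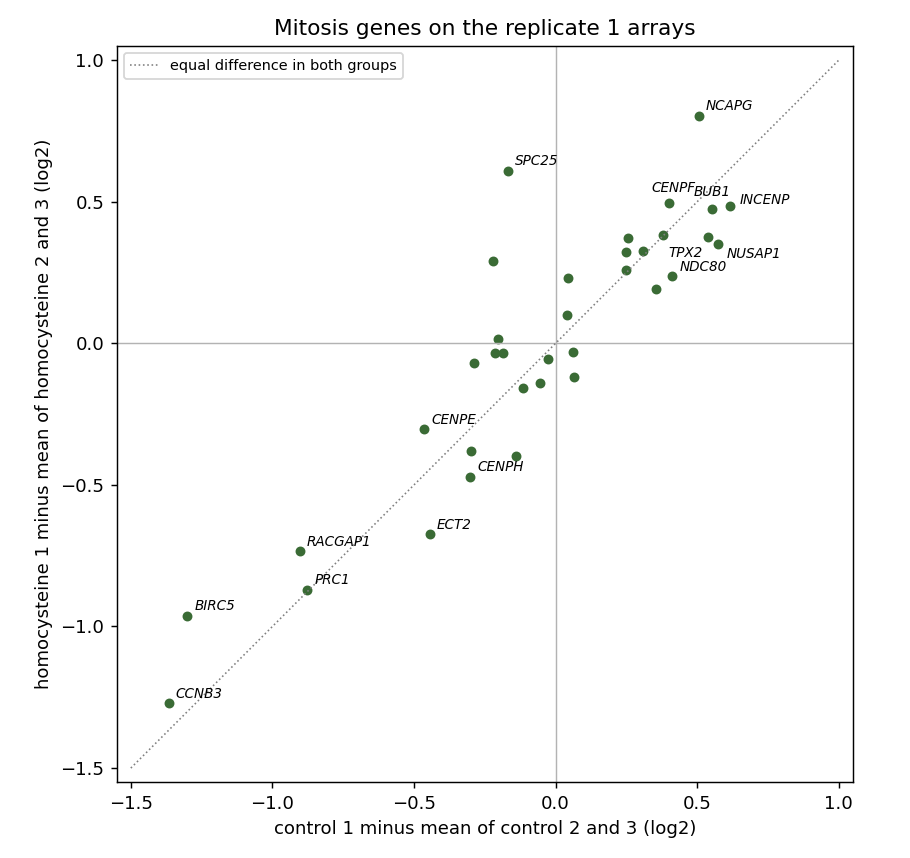
For each of the 35 mitosis genes, control 1 minus the mean of control 2 and 3 (horizontal axis, log2) against homocysteine 1 minus the mean of homocysteine 2 and 3 (vertical axis, log2); genes at least 0.4 from 0 on either axis are named. Most points lie near the dotted line of equal difference, from CCNB3 at -1.37 and -1.27 to NCAPG at 0.51 and 0.80.

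Other genes of the pathway, from lists written without the 42, gave no call either. Of 84 further mitosis genes 69 were measured and 65 (94.2%) were above background on all arrays. None passed the threshold in either direction, 34 log2 changes were positive and 35 negative, and the median was -0.0005. By list, 4 of 11 genes of mitotic entry were positive, 6 of 17 of the anaphase-promoting complex and cohesin, 14 of 22 of the kinetochore, 8 of 16 of spindle and cytokinesis and 2 of 3 of condensin. The bright gene with the smallest p in each list was named by rule. ZWILCH, a kinetochore protein that serves the checkpoint, gave 371.2, 432.6 and 347.7 in control and 274.2, 295.3 and 281.8 with homocysteine, without overlap (log2 change -0.43, adjusted limma p 0.9999). KIFC1, a minus-end kinesin of the spindle, gave 153.9, 122.5 and 127.9 against 191.8, 219.3 and 186.8, also without overlap but higher with homocysteine (log2 change 0.57, adjusted limma p 0.9999). These KIFC1 readings were only 1.9 to 3.51 times background. ANAPC1, the largest subunit of the anaphase-promoting complex, BORA, an activator of PLK1, and the condensin subunit NCAPD2 had log2 changes of 0.24, 0.13 and 0.18. Averages over every probe set of a gene, dim ones included, gave -0.096 for ZWILCH, 0.096 for ANAPC1, 0.13 for BORA and -0.35 for NCAPD2. For KIFC1 the average equalled the value of the probe set read above, 0.5681, so it is no separate check.

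Beside mitosis, no gene of DNA replication or of cell cycle arrest passed the test. Of 39 measured DNA replication genes 38 were above background throughout, 22 were read higher and 17 lower with homocysteine, at a median of 0.029 in log2. The bright one with the smallest p was POLD3, a subunit of DNA polymerase delta, at 762.6 ± 198.6 and 579.5 ± 118.2 (SD, n = 3 each). Its log2 change was -0.38, and -0.063 with every probe set of the gene averaged, dim ones included. The summed intensity of the 39 genes lay between 115900 and 130800 in control and between 117200 and 132900 with homocysteine. Of 12 measured arrest genes 8 were read higher and 4 lower (median 0.011). RBL1, a pocket protein, gave 5714 ± 1631 and 6355 ± 1296 (SD, n = 3 each). Its log2 change was 0.17, and 0.51 with every probe set of the gene averaged. The difference between these lists and the mitosis genes was not tested.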

How the data were processed

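Total RNA of 6 culture samples was measured on 1-colour Affymetrix chicken arrays. The authors deposited 1 linear intensity value per probe set and array; RMA is named, without a version, per the submitters' processing notes. Yet the deposited values are linear, and with 2% trimmed from either end each array averages 500.1, which RMA does not set. How probes were summarised is not stated in the sources used here. The labels name both Cy3 and Cy5; values were treated as 1 channel.

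Log2 of each intensity was taken, with no pseudocount or further normalization. The 96 Affymetrix control and 57 reporter sets were left out, leaving 38382 probe sets, of which 27168 had 1 gene symbol, 177 several and 11037 none in the platform annotation. All 35 measured members had the same symbol in RefSeq (GRCg7b, used for names only). The groups were fitted with limma 3.58.1 under R 4.3.3 (lmFit and eBayes, two-sided), with p-values adjusted by Benjamini-Hochberg over all probe sets. The code was also run on simulated data with independent arrays and no effect shared by replicate number. That run could not show how the fit treats what same-numbered arrays share. Errors are SDs over 3 arrays. The number of arrays limits the precision. Values on all arrays were given for 15 measured genes chosen by name and, per class, for the genes with the smallest p and the largest change; further probe sets, CENPF and SPC25 were chosen after their values were seen. Members and lists were chosen with earlier results of these data known. Alternatives were the replicate block, filters, scalings, variance models, probe set summaries, thresholds, a batch term and leaving out arrays.

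Deviations from the group means correlated by 0.172, 0.108 and 0.0486 for replicate numbers 1, 2 and 3 over all probe sets, and by 0.786, 0.703 and 0.332 over those above background throughout. The labels do not state that a replicate number marks a shared culture, and number 3 missed 0.1 over all probe sets. For these reasons the numbers were not taken as pairs in the main fit. The main intervals thus leave out what same-numbered arrays share over the bright probe sets, where 34 of 35 members lie. Same-numbered values are given side by side as a description.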

Additional observations from a re-analysis of the deposited data

How the results depend on the processing

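The counts of calls were 0 for members and 0 for all probe sets in the main limma fit and in each alternative run for them, among them the replicate block (2023 probe sets at an unadjusted p under 0.05, against 1524 without it), an adjusted threshold of 0.10 and leaving out each array in turn. The replicate block changed no call. The fit with the block on probe sets above background on at least 3 arrays was chosen after the data were examined. The members' median log2 change, -0.025, was -0.039 without both replicate 1 arrays, 0.036 with arrays centred on bright probe sets, -0.0135 with every probe set of a gene averaged and between -0.035 and 0.012 over leaving out each array (0.0073 without homocysteine 2 and 0.012 without homocysteine 3), so its sign was not stable. The number of members above background stayed between 34 and 35 over all alternatives run for it.

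Of 442 values of 26 named genes under the alternatives, 29 turned their sign, in 13 genes, none of which had passed the test. The cause was not tested. Many of the 442 could not turn. The replicate block, the batch term, the background filter and the trended variance leave a log2 change as it is. So does raising dim values to background, since the named genes were above it on all 6 arrays. Centring gave 0.030 for BIRC5 and 0.032 for CDC20. Quantile normalization gave 0.0073 for BIRC5, -0.031 for CDK1 and -0.0165 for TPX2. Averaging the probe sets gave 0.044 for CCNA2, -0.049 for KIF11, -0.21 for NDC80 and -0.35 for NCAPD2. Over leaving out each array, log2 changes ranged from -0.012 to 0.36 for ANLN, -0.49 to 0.29 for BIRC5, -0.22 to 0.12 for BUB1, -0.72 to 0.20 for CCNB3, -0.13 to 0.039 for CDC20, -0.078 to 0.15 for CDK1, -0.0005 to 0.39 for RBL1, -0.26 to 0.012 for SMC4 and -0.085 to 0.22 for TPX2. With no turn of sign they ranged from -0.63 to -0.046 for PRC1, 0.0095 to 0.28 for NDC80, 0.060 to 0.30 for KIF11, -0.35 to -0.12 for HMMR, -0.66 to -0.34 for CENPE and -0.55 to -0.31 for TTK. Among the members only SPC25 had a leading probe set below background on an array. HMMR and ECT2 were also dim, with lowest readings at 2.52 and 3.5 times background.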
